A study of Oryza sativa with 14 samples.

Results

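The endoplasmic reticulum (ER) is where secreted and membrane proteins are folded, and 9 rice genes of this folding machinery and its stress control were followed here through every library of the series, out of 55986 genes in the count table. They were chosen by name and role, although with earlier results of these data known: the ER-resident HSP70 chaperones BiP1 (LOC_Os02g02410), BiP2 (LOC_Os03g50250), BiP4 (LOC_Os05g35400) and BiP5 (LOC_Os08g09770), the protein disulfide isomerases PDIL1-1 (LOC_Os11g09280) and PDIL2-3 (LOC_Os09g27830), calnexin (CNX, LOC_Os04g32950), calreticulin (CRT, LOC_Os07g14270) and the transcription factor bZIP74, also called bZIP50 (LOC_Os06g41770). All 9 have a row in the table, and 8 passed the filter on low counts; BiP5 did not.

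When unfolded proteins build up in the ER, plant cells switch on the unfolded protein response. The membrane sensor IRE1 cuts and rejoins the mRNA of a bZIP factor, bZIP74 in rice, so that its product reaches the nucleus, and membrane-anchored bZIP factors are released from the ER by proteolysis. Together these factors raise transcription of BiP, disulfide isomerases and lectin chaperones, and heat is among the stresses known to engage the pathway in leaves. A count per gene does not part the spliced from the unspliced bZIP74 mRNA, so the values below give the total amount of its transcript and say nothing of its splicing.

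The series asked which genes lie downstream of HTG3, using leaf RNA from rice (Oryza sativa) cultivar ZH11 (Zhonghua 11) at the 4-leaf seedling stage. Wild type (WT) and 2 htg3 mutant lines, cr12 and cr2, which the labels describe as transgenic, were either left untreated or held at 42 °C for 0.5 h before leaves were taken. Of the 14 libraries, WT gave 3 without heat (called WT_control) and 3 with it (WT_heat). Each line gave 2 without heat (cr12_control, cr2_control) and 2 with it (cr12_heat, cr2_heat). The sources used here do not say how htg3 was mutated, whether each line derives from a single plant, how many plants entered a library or which locus HTG3 is, so the level of the mutated gene was not checked. Nothing says that replicates are separate plants, and p-values therefore measure the spread between these libraries, which may be technical.

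Libraries held 92 M to 99.4 M estimated counts (M, mega), or 23 M to 24.9 M fragments at about 4 counts a fragment. Levels are CPM (counts per M counts) on scaled library sizes, a measure that is not corrected for gene length, so levels are compared between libraries and not between genes. All 5 leaf markers (Rubisco small subunit, Rubisco activase and light-harvesting genes) had counts and summed to 35600 to 67900 CPM untreated and 12700 to 27900 CPM after heat. They did not move alike. In WT the log2 change with heat was -3.27 for Rubisco activase and -1.25 and -1.23 for the small subunit genes, all called lower (edgeR). The light-harvesting genes, at -0.32 and 0.04, were not called. Of 3 root markers the silicon transporter gene Lsi2 was at 0, and of 3 endosperm markers the glutelin gene GluB1 was at 0. The root sum was 4.75 to 9.76 CPM untreated and 14 to 27.2 CPM after heat, the endosperm sum 3.32 to 4.07 and 6.04 to 8.02 CPM, and their part in the results was not tested. In leaf RNA taken in bulk, fewer cells of a type and less RNA per cell cannot be told apart.

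Heat raised the ER folding genes steeply in WT leaves. After 0.5 h at 42 °C, 8 of the 9 genes rose (edgeR's quasi-likelihood test, Benjamini-Hochberg adjusted p under 0.05), where 24.8% of all 28823 tested genes rose. BiP4 is among the 8, but it had at most 4 counts in any untreated library. It passed the filter on low counts through heated libraries alone, so its call is not independent of the filter. The heated and untreated WT libraries did not overlap for these 8 genes, against 28.3% of all tested genes that stood higher in every heated library. The median log2 change of the 8 tested genes was 4.23, or 3.76 with BiP2 and BiP4 set at their lower bounds, and that of all tested genes was -0.0546.

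**Figure D1:**
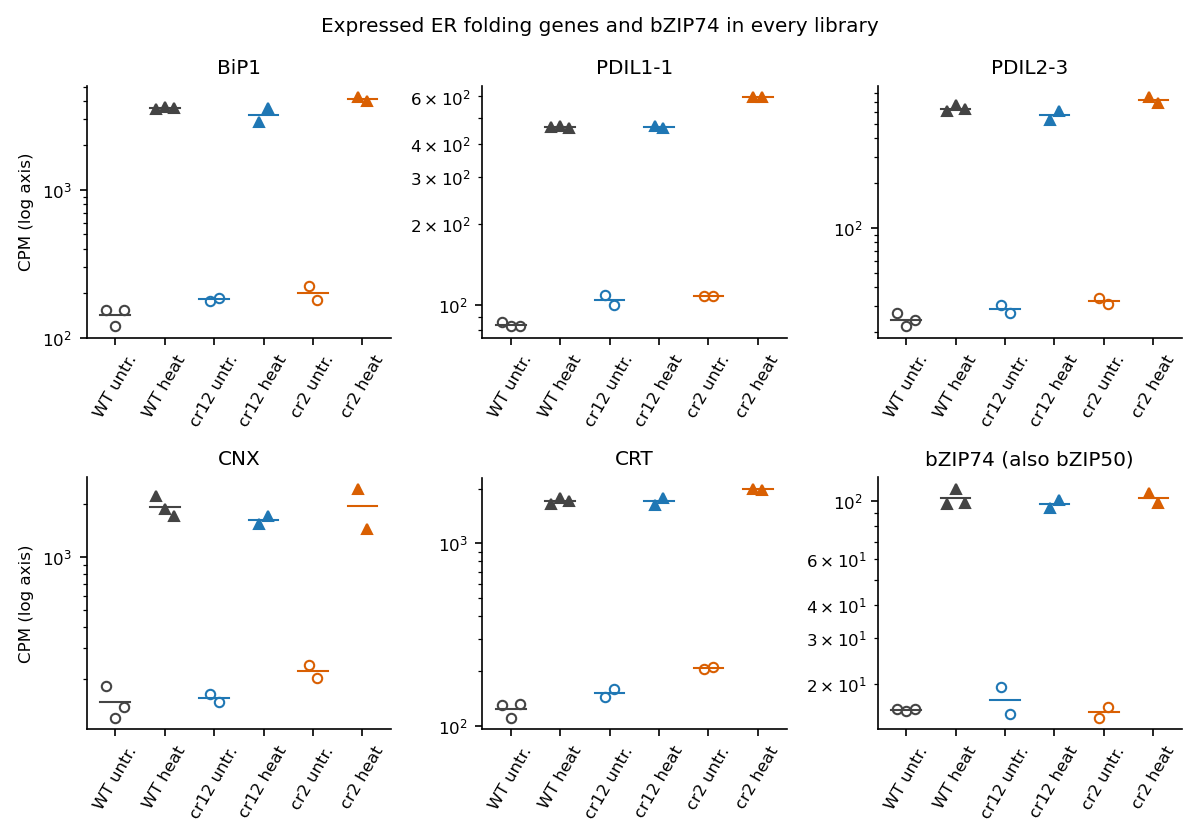
CPM (log axis) of BiP1, PDIL1-1, PDIL2-3, CNX, CRT and bZIP74 in each of the 14 libraries, as open circles untreated and filled triangles after heat, with a bar at the group mean. For all 6 genes every heated library lies far above every untreated one, and the 3 genotypes stand close together within a treatment.

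BiP1, the principal BiP of rice, binds exposed hydrophobic stretches of proteins entering the ER and releases them with the help of ATP. In untreated WT leaves its level was 154, 119 and 153 CPM, and in heated WT leaves 3550, 3650 and 3590 CPM. The groups are far apart and the heated libraries nearly alike, with a coefficient of variation of 1.42%. BiP1 rose by a log2 change of 4.66 ± 0.15 (SE, n = 3 against 3), which is 25.3-fold with a 95% interval of 20.1 to 32 (edgeR, adjusted p = 7.3e-10). By log2 change it ranked 553 among the 28823 tested genes.

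The other BiP genes were at or near 0 without heat and stayed low after it. BiP4, known in rice as a BiP gene that is nearly silent until the ER is stressed, had no count in the 3 untreated WT libraries. After heat it reached 3.78, 5.19 and 1.84 CPM, a mean of 3.61 ± 1.68 (SD, n = 3), and every heated library was above every untreated one. Taking 3 fragments over the untreated group as the floor (0.04 CPM), BiP4 was at least 90.1-fold higher after heat. Its call (edgeR, adjusted p = 1.5e-05) is not independent of the filter on low counts, which it passed through heated libraries alone. Leaving out a heated library in turn gave bounds of 70.3 to 112.

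BiP2 also had no count in untreated WT leaves. It stood at 0.0539, 0.505 and 0.0873 CPM in the heated WT libraries, which is 5, 43 and 8 counts. It passed the test (edgeR, adjusted p = 0.01) and was at least 5.38-fold higher over the same floor, but most of its counts lie in WT_heat replicate 2. Without that library the bound was 1.76 (adjusted p = 0.0349), resting on 13 counts. With counts divided by 4, or with just the WT groups in the fit, BiP2 fell under the filter on low counts and was not tested, which left 7 of the 9 genes called.

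BiP5, like BiP4 a stress-induced BiP gene of rice, had 0 counts in all 7 untreated libraries. After heat it had 0, 8 and 5 counts in WT, 0 and 7 in cr12, and 0 and 2 in cr2. These values lie at about the floor in WT and under it in both lines, so no fold is given and the gene was not tested. The BiP genes are similar in sequence, and how the counting shared reads between copies is not stated, so the low values of BiP2, BiP4 and BiP5 beside the abundant BiP1 are uncertain. Reads passed between copies were not tested.

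**Figure D2:**
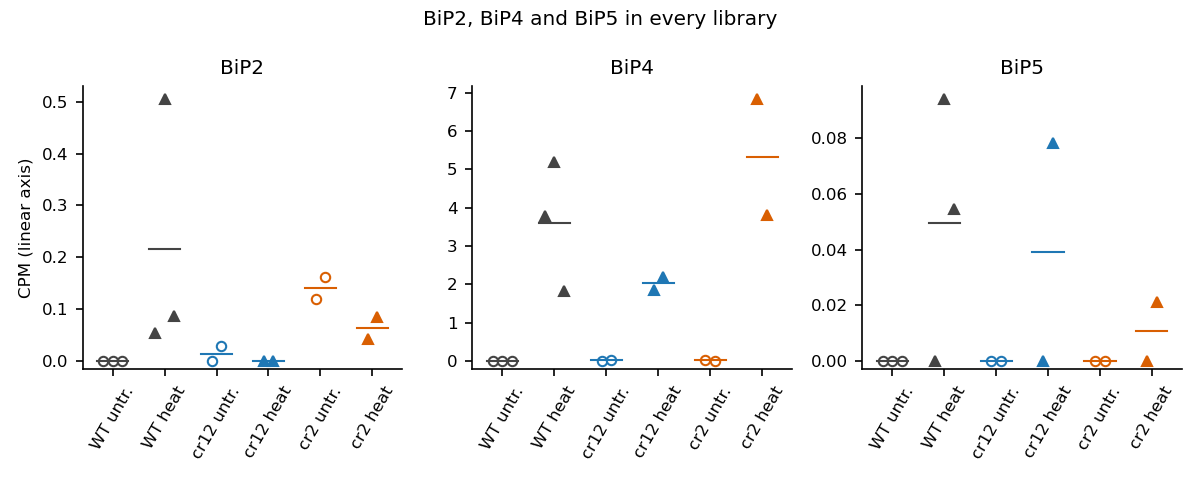
CPM (linear axis, a scale for each gene) of BiP2, BiP4 and BiP5 in the 14 libraries, as open circles untreated and filled triangles after heat, with a bar at the group mean. BiP4 is at 1.84 CPM or more in every heated library, while BiP2 stays at 0.505 CPM or less and BiP5 at 0.094 CPM or less.

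Disulfide isomerases form and rearrange the sulfur bridges of folding proteins, and the pair followed here moved by different amounts. PDIL2-3, an isomerase of the P5 type, stood at 26.9, 21.8 and 24 CPM in untreated WT leaves and at 610, 663 and 623 CPM after heat. That is a log2 rise of 4.70 ± 0.12, or 26.1-fold (95% interval 21.8 to 31.2; edgeR, adjusted p = 2.5e-10). PDIL1-1, an isomerase that in rice seed serves the folding of glutelin storage proteins, stood at 86.2, 83.1 and 82.8 CPM untreated and at 461, 465 and 458 CPM after heat. Its libraries were tightly grouped, and it rose by 2.46 ± 0.07, or 5.49-fold (4.9 to 6.14; adjusted p = 5e-10). The intervals of the log2 changes of these isomerases, 4.44 to 4.96 and 2.29 to 2.62, do not overlap.

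Calnexin, in the ER membrane, and calreticulin, its soluble counterpart, hold glycoproteins by their sugar chains during folding. CRT stood at 129, 110 and 131 CPM in untreated WT leaves and at 1650, 1770 and 1710 CPM after heat. The groups are well apart, and CRT rose by 3.79 ± 0.11, or 13.9-fold (11.8 to 16.3; edgeR, adjusted p = 3.4e-10). CNX stood at 184, 120 and 138 CPM untreated and at 2230, 1890 and 1710 CPM after heat. It rose by 3.72 ± 0.22, or 13.2-fold (9.42 to 18.5; adjusted p = 7e-08), about as much as CRT but with a wider interval. CNX had the widest relative spreads of the well-covered genes: its coefficient of variation was 22.3% in untreated WT and 36.1% in heated cr2, where tested genes above 10 CPM in every group had medians of 6.68% and 6.3%.

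The factor bZIP74, the rice target of IRE1 splicing, had the most even untreated WT values of the well-covered genes, 16.1, 15.9 and 16.1 CPM. After heat its level was 97.6, 111 and 98 CPM. Its total transcript rose by 2.67 ± 0.10, or 6.37-fold (95% interval 5.47 to 7.42; edgeR, adjusted p = 1.8e-09). That rise is closer to the one of PDIL1-1 than to those of BiP1, PDIL2-3, CNX and CRT.

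In the htg3 lines, too, heat raised 7 of the 9 genes, BiP2 and BiP5 being the exceptions, where 27.6% of tested genes rose over both lines. The same 7 rose in cr12 alone, where 22.2% of tested genes did, and in cr2 alone, where 20.5% did. For these 7 every heated library of both lines was above every untreated one, against 23.6% of tested genes. BiP4 is in each of these counts, although it came through the filter on low counts by heated libraries alone.

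BiP1 went from 178 and 186 CPM to 2880 and 3580 CPM in cr12, and from 223 and 181 CPM to 4230 and 3990 CPM in cr2. Over both lines it rose by 4.25 ± 0.13, or 19-fold (edgeR, adjusted p = 2.3e-10). The lines taken singly gave 4.15 ± 0.18 for cr12 (adjusted p = 1.3e-08) and 4.34 ± 0.18 for cr2 (adjusted p = 1.1e-08).

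BiP4 had 4 counts, about 1 fragment, in 1 of the 2 untreated libraries of each line and none in the other. After heat it stood at 1.86 and 2.19 CPM in cr12 and at 6.83 and 3.8 CPM in cr2, above every untreated library. With 95 fragments against 1, the ratio in cr12 was 101, with a 95% counting interval of 17.8 to 4050. With 247 fragments against 1, the ratio in cr2 was 255, with an interval of 45.3 to 10100. BiP4 passed the test in both lines (edgeR, adjusted p = 0.00032 in cr12 and 0.00013 in cr2), having come through the filter on low counts by heated libraries alone. The fitted log2 change turned on that single fragment: 6.58 in cr12 became 10.62 without cr12_control replicate 2, and 5.69 without replicate 1. In cr2 it was 7.92, and became 12 without cr2_control replicate 1 and 6.97 without replicate 2, with BiP4 called each time.

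BiP2 did not follow. It had 0 and 3 counts in untreated cr12 and 0 in both heated cr12 libraries, and 12 and 15 counts in untreated cr2 against 4 and 8 after heat. Its change in the htg3 lines did not pass the test (edgeR, adjusted p = 0.19).

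PDIL2-3 stood at 30.2 and 26.8 CPM in untreated cr12 and 532 and 612 CPM after heat, and at 33.9 and 31 CPM in untreated cr2 and 750 and 687 CPM after heat. It rose by 4.40 ± 0.10 over both lines, or 21.1-fold (edgeR, adjusted p = 6.9e-11). PDIL1-1 went from 109 and 99.8 CPM to 467 and 456 CPM in cr12, and from 108 in both cr2 libraries to 595 in both. It rose by 2.30 ± 0.06, or 4.94-fold (adjusted p = 1.2e-10). In both lines, as in WT, PDIL2-3 moved more than PDIL1-1.

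CRT went from 144 and 158 CPM to 1630 and 1770 CPM in cr12, and from 205 and 209 CPM to 1990 and 1970 CPM in cr2. It rose by 3.37 ± 0.09, or 10.4-fold (edgeR, adjusted p = 1.1e-10). CNX went from 165 and 149 CPM to 1540 and 1720 CPM in cr12, and from 241 and 204 CPM to 2450 and 1450 CPM in cr2. The heated cr2 libraries lie on either side of all heated WT and cr12 libraries, and CNX rose by 3.25 ± 0.19 over both lines, or 9.52-fold (adjusted p = 3.6e-08).

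The transcript of bZIP74 went from 19.5 and 15.4 CPM to 93.9 and 101 CPM in cr12, and from 14.9 and 16.4 CPM to 107 and 98 CPM in cr2. It rose by 2.60 ± 0.09, or 6.05-fold (edgeR, adjusted p = 4.3e-10), so that the heated htg3 libraries cover nearly the same range as the heated WT libraries.

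**Figure D3:**
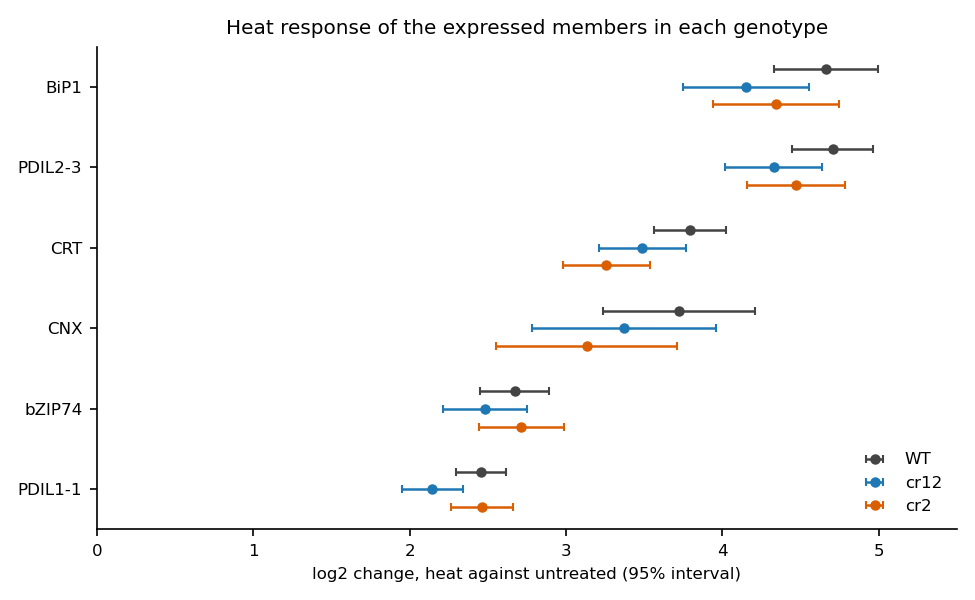
Log2 change with heat (x axis) of the 6 well-covered genes in WT, cr12 and cr2, as points with 95% intervals from the edgeR fit. In every genotype BiP1 and PDIL2-3 have the highest values, CRT and CNX lie between, and bZIP74 and PDIL1-1 are lowest.

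Whether the heat response itself differed between the htg3 lines and WT was tested as the difference of both responses. None of the 9 genes passed (edgeR), where 0.114% of all tested genes did. Of the 9, 4 had an unadjusted p under 0.05, where 13.8% of tested genes had. BiP2, without a count in untreated WT, is among the 4. DESeq2 called 1 of the 9 and 1204 genes in all, and limma-voom 0 of the 9 and 10 genes in all. The estimates of the well-covered genes were all below 0, as was the median of all tested genes, -0.0153. These estimates share the untreated and heated libraries with the comparisons that follow. For CRT the difference was -0.42 ± 0.13, with a 95% interval of -0.69 to -0.15 (edgeR, adjusted p = 0.17), and this was the gene that DESeq2 called (adjusted p = 0.0062). For BiP1 it was -0.42 ± 0.17, interval -0.80 to -0.04 (adjusted p = 0.31). For bZIP74 it was -0.07, interval -0.35 to 0.20 (adjusted p = 0.88). BiP2 and BiP4 have no count in untreated WT, so their fitted differences depend on the way zeros are handled and are not given.

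Without heat, some of the folding genes were higher in the htg3 lines than in WT. Of the 9 genes, 2 were called higher, CRT and PDIL1-1, where 1.74% of tested genes were called higher. BiP1, PDIL1-1 and CRT were higher in all 4 untreated htg3 libraries than in the 3 WT libraries, against 6.77% of tested genes. The 6 well-covered genes had log2 differences from 0.04 to 0.52, and the median of all tested genes was -0.0132. The root markers summed to 4.75 to 5.98 CPM in untreated WT, 7.63 to 9.76 in cr12 and 7.26 to 7.91 in cr2. None of the 9 tested tissue markers was called between the lines and WT (edgeR). The root marker Lsi1 was nearest to a call, higher in the lines by 0.57 on the log2 scale (edgeR, adjusted p = 0.08). That is more than any of the 6 well-covered genes. The part of the markers in these differences was not tested.

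CRT had the largest of these 6 differences. Its mean was 123 ± 11.6 CPM (SD, n = 3) in untreated WT, 151 ± 9.56 in cr12 (n = 2) and 207 ± 2.54 in cr2 (n = 2). It was higher in the lines by a log2 difference of 0.52 ± 0.09 (edgeR, adjusted p = 0.01). Without WT_control replicate 2, the lowest library at 110 CPM, the difference was 0.45 and no longer passed (adjusted p = 0.0507).

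PDIL1-1 was at 84 ± 1.86 CPM in untreated WT, 104 ± 6.6 in cr12 and 108 ± 0.234 in cr2. It was higher in the lines by 0.34 ± 0.07 (edgeR, adjusted p = 0.02). Leaving out any of the 3 WT_control libraries, cr12_control replicate 1 or cr2_control replicate 2 took it above the threshold, with differences of 0.31 to 0.35 and adjusted p of 0.0556 to 0.082.

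BiP1 was at 142 ± 19.9 CPM in untreated WT, 182 ± 5.94 in cr12 and 202 ± 30 in cr2. Its difference of 0.43 ± 0.12, interval 0.16 to 0.71, missed the threshold in edgeR (adjusted p = 0.087), while DESeq2 (0.0051) and limma-voom (0.041) called it. PDIL2-3 differed by 0.33, interval 0.12 to 0.54 (edgeR, adjusted p = 0.096; called by DESeq2 at 0.016). CNX differed by 0.35 with an interval that spans 0, from -0.07 to 0.76 (edgeR, adjusted p = 0.39). For bZIP74 the difference was 0.04, interval -0.15 to 0.24 (adjusted p = 0.88).

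After heat the lines and WT were close. None of the 9 genes was called (edgeR), where 7.21% of tested genes were. Of the 9, 2 had an unadjusted p under 0.05, where 23.9% of tested genes had. DESeq2 called 2 of the 9, PDIL1-1 as higher and BiP2 as lower in the lines, and 4349 genes in all. With limma-voom it was 0 of the 9 and 2429 genes in all. No gene of the 9 had all htg3 libraries on 1 side of all WT libraries, where 8.74% of tested genes were higher and 8.76% lower in every htg3 library. BiP1 differed by 0.02, interval -0.25 to 0.29 (edgeR, adjusted p = 0.97), and PDIL2-3 by 0.02, interval -0.19 to 0.23 (adjusted p = 0.94). CRT differed by 0.10, interval -0.09 to 0.30 (adjusted p = 0.54), and bZIP74 by -0.03, interval -0.22 to 0.16 (adjusted p = 0.9).

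The heated PDIL1-1 values of cr12, 467 and 456 CPM, lie just above and just below those of WT, 458 to 465 CPM. Both cr2 values lie above all of these, at 595 CPM. Over both lines PDIL1-1 differed from WT by 0.18, interval 0.04 to 0.33 (edgeR, adjusted p = 0.11; DESeq2 0.023). CNX had the widest interval, -0.53 to 0.28, around a difference of -0.13 (edgeR, adjusted p = 0.76).

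**Figure D4:**
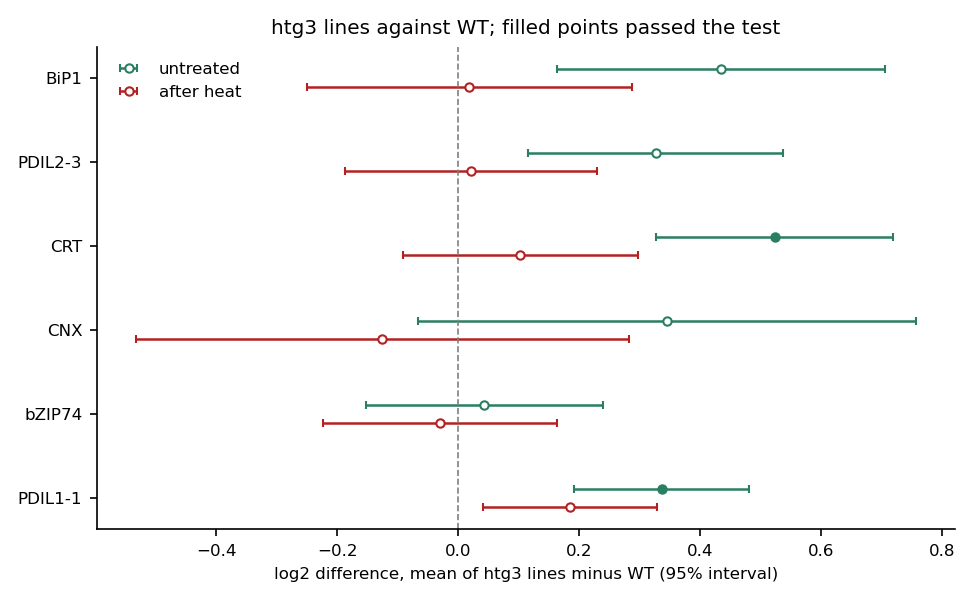
Log2 difference between the mean of the htg3 lines and WT (x axis), untreated and after heat, for the 6 well-covered genes, with 95% intervals; filled points passed the edgeR test. Untreated CRT and PDIL1-1 are the filled points, and after heat all 6 points are open.

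The lines themselves were set side by side. Untreated, none of the 9 genes was called between cr12 and cr2 (edgeR), where 3.8% of tested genes were. Of the 9, 1 had an unadjusted p under 0.05, against 21.2% of tested genes. DESeq2, with 3161 genes called in all, and limma-voom, with 1392, each called 1 of the 9. That gene was CRT, at 144 and 158 CPM in cr12 and 205 and 209 CPM in cr2. It was lower in cr12 by -0.45 ± 0.12 on the log2 scale (edgeR, adjusted p = 0.053), and without WT_heat replicate 2 it passed (-0.49, adjusted p = 0.0415). BiP2, PDIL2-3, CNX and CRT were lower in both cr12 libraries than in both cr2 libraries, against 23.9% of tested genes.

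After heat, 1 of the 9 genes was lower in cr12 than in cr2, PDIL1-1, where 3.45% of tested genes were called lower. Its log2 difference was -0.37 ± 0.09 (edgeR, adjusted p = 0.031). It no longer passed without any 1 of the 4 heated htg3 libraries, WT_control replicate 2 or 3, cr2_control replicate 2, or WT_heat replicate 1 or 3, with differences of -0.37 to -0.31 and adjusted p of 0.0519 to 0.31. BiP1, BiP2, BiP4, PDIL1-1, PDIL2-3 and CRT were lower in both heated cr12 libraries than in both heated cr2 libraries, as 24.6% of tested genes were. For BiP1 the difference was -0.35, interval -0.70 to 0.01 (adjusted p = 0.27).

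Tissue markers differed between the heated lines too. Of the 5 leaf markers 2 were called lower in cr12, RbcS by -1.47 (edgeR, adjusted p = 0.016) and RbcS2 by -1.36 (0.048), and the root marker Lsi1 was called higher, by 0.77 (0.047). The leaf markers summed to 12700 to 16900 CPM in heated cr12 and 25600 to 27900 CPM in heated cr2. The root markers summed to 22.9 to 27.2 CPM in cr12 and 14 to 16.1 CPM in cr2, and the endosperm markers to 6.04 to 6.9 and 6.9 to 7.34 CPM. Their part in the differences between the lines was not tested.

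The order of the group means was alike for most well-covered genes. Untreated, BiP1, PDIL1-1, PDIL2-3, CNX and CRT were lowest in WT, next in cr12 and highest in cr2, while bZIP74 was highest in cr12, at 17.4 CPM against 16 in WT and 15.6 in cr2. After heat, BiP1 and PDIL2-3 were lowest in cr12, next in WT and highest in cr2. Heated CRT was level in cr12 and WT, at 1700 ± 99.9 and 1710 ± 62.2 CPM, and stood at 1980 ± 10.4 CPM in cr2. For heated CNX no order is given: its means were 1940 ± 262 CPM in WT, 1630 ± 127 in cr12 and 1950 ± 705 in cr2. Heated PDIL1-1 was level in WT and cr12, at 461 ± 3.3 and 462 ± 7.45 CPM, and higher in cr2, at 595 ± 0.566 CPM. Heated bZIP74 was level in all genotypes, at 102 ± 7.4 in WT, 97.5 ± 5.13 in cr12 and 102 ± 6.21 in cr2. Apart from the calls given above, neighbours in these orders were not separated by a test, and neither line was set against WT alone.

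Genes with a pattern like that of a member were sought as the smallest root mean square difference of log2 CPM, centred on each gene's mean, over the 14 libraries. Closest to BiP1 among all tested genes was PDIL2-3, at 0.0995 log2 units, followed by LOC_Os06g39260, at 0.116, and the ER HSP90 chaperone GRP94, at 0.242. LOC_Os06g39260, which the sources used here do not name, went from 15.8 to 362 CPM in WT. Closest to bZIP74 were LOC_Os07g31540 (0.116), LOC_Os11g09460 (0.13) and LOC_Os08g24400 (0.138), also without a name here. Among pairs of members, the next closest after BiP1 with PDIL2-3 were PDIL1-1 with bZIP74, at 0.217, and CNX with CRT, at 0.233. The heat step is shared by all 14 libraries in these measures and makes up most of each pattern.

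The rest of the ER machinery was read from a list of 23 further genes, of which 22 were tested. In WT, 19 of the 23 rose with heat, where 24.8% of tested genes rose, and none fell; the median log2 change was 1.24 against -0.0546 for all tested genes. In the htg3 lines 17 rose, where 27.6% of tested genes did, and none fell. In cr12 alone 14 rose (22.2% of tested genes) and in cr2 alone 18 (20.5%).

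Among the 6 further folding chaperones and partners, all 5 tested rose in WT, by 1.70 to 4.25 on the log2 scale, and BiP3 was too low to test. ERdj3B, a J-domain partner that drives the ATPase of BiP, went from 32.4 ± 2.62 to 618 ± 53.5 CPM (n = 3 each), a log2 rise of 4.25 ± 0.13 (edgeR, adjusted p = 5.3e-10). GRP94 went from 190 ± 6.7 to 3540 ± 134 CPM, a rise of 4.22 ± 0.10 (adjusted p = 2.5e-10). The second calreticulin gene, LOC_Os03g61670, rose by 3.90 ± 0.31 (adjusted p = 8.2e-07). Over both htg3 lines ERdj3B rose by 4.14 ± 0.11 and GRP94 by 3.97 ± 0.09. ERdj3B rose by 3.98 ± 0.16 in cr12 and 4.29 ± 0.16 in cr2, and GRP94 by 3.74 ± 0.13 and 4.19 ± 0.13.

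Genes for disulfide formation were mixed. Of 11, 8 rose in WT and 6 in the htg3 lines, with WT log2 changes from -0.25 to 3.59. The highest was that of ERO1, the oxidase that recharges disulfide isomerases, which stood at 16.2 ± 2.09 CPM untreated and 195 ± 25.3 CPM after heat in WT. ERO1 rose by 3.58 ± 0.11 over both htg3 lines (edgeR, adjusted p = 2.8e-10) and by 3.64 ± 0.16 in cr12. PDIL2-1, named here after its values were seen, rose by 1.29 in WT, from 63.4 ± 3.24 to 155 ± 1.36 CPM. In WT the isomerase genes PDIL1-3, PDIL1-4 and PDIL5-1 did not pass the test, with log2 changes of -0.25, 0.12 and -0.23.

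All 6 genes for stress signalling and the removal of misfolded proteins rose in WT and in the htg3 lines. The values of the sensor IRE1 and of the factors bZIP39 and bZIP60, which resemble the membrane-anchored factors of Arabidopsis, are given although chosen after they were seen. In WT, IRE1 went from 62.1 ± 2.42 to 139 ± 7.95 CPM, a log2 rise of 1.16 (edgeR, adjusted p = 2.8e-07). bZIP60 went from 17.2 ± 0.874 to 163 ± 24.6 CPM, a rise of 3.25 (adjusted p = 2.7e-09), and bZIP39 from 35.3 ± 3.66 to 108 ± 20.2 CPM, a rise of 1.62 (adjusted p = 5.4e-07). All 3 factors of the pathway measured here, bZIP74 among them, were thus higher after heat.

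**Figure D5:**
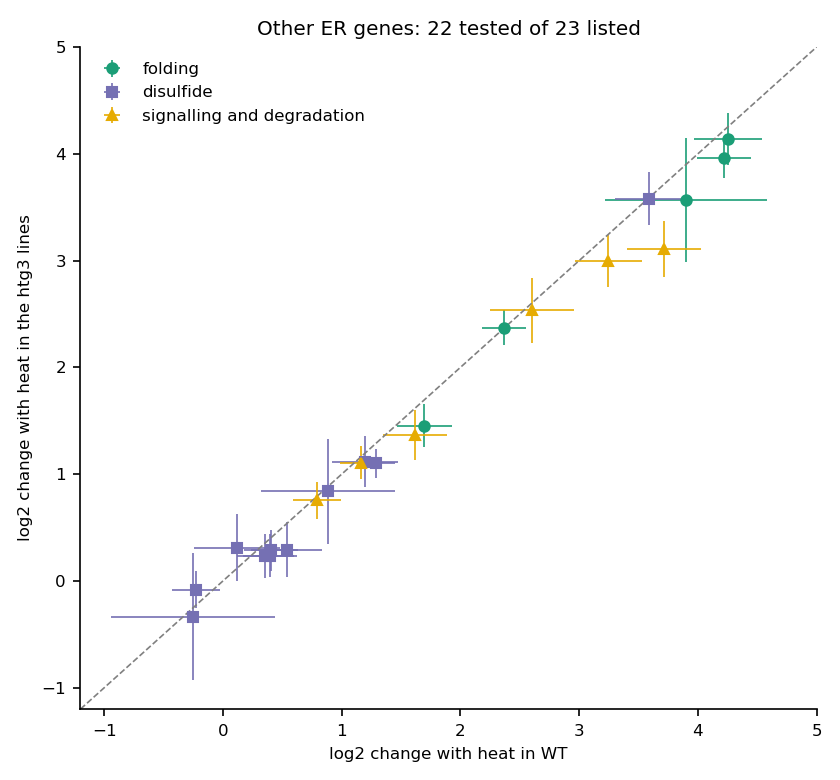
Log2 change with heat in WT (x axis) and in the htg3 lines (y axis) of the 22 tested genes of the further list, coloured by class, with 95% intervals and a dashed line where both are equal. Folding genes lie at 1.45 and above on both axes, the disulfide genes spread from about 0 up to ERO1 at 3.59 and 3.58, and most points lie on or slightly under the line.

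Between genotypes few of these genes differed. Untreated, 0 of the 23 were called between the htg3 lines and WT (edgeR), where 885 of the 28823 tested genes were. Of the 23, 3 had an unadjusted p under 0.05, against 16.9% of tested genes. DESeq2 called 2 of the 23, GRP94 and PDIL2-1, and 2246 genes in all, and limma-voom 0 of the 23. In the difference of heat responses 0 were called (edgeR), where 0.114% of tested genes were, and 1 had an unadjusted p under 0.05, against 13.8% of tested genes. DESeq2 called 1 of the 23, BI-1, and 1204 genes in all, and limma-voom 0 of the 23.

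After heat 1 of the 23 genes was called between the htg3 lines and WT, a share below the 7.21% of all tested genes. It was BI-1 (LOC_Os02g03280), a membrane protein of the ER that restrains cell death, and it was lower in the lines. DESeq2 called BI-1 and, as higher in the lines, PDIL1-4 (0.47 in edgeR, adjusted p = 0.089), and limma-voom called BI-1. Untreated it stood at 53.6, 64.2 and 59.7 CPM in WT, 57.1 and 61.3 in cr12, and 68.6 and 71.7 in cr2. After heat it stood at 698, 859 and 774 CPM in WT, 472 and 643 in cr12, and 513 and 600 in cr2. BI-1 alone of the 23 had every heated htg3 library below every heated WT library, a share below the 8.76% of all tested genes.

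BI-1 rose in both, by 3.72 ± 0.14 in WT and 3.11 ± 0.12 in the htg3 lines, and after heat was lower in the lines by -0.48 ± 0.12 (edgeR, adjusted p = 0.034). The call was lost when the fit held just the compared groups (adjusted p = 0.101). It was also lost without WT_control replicate 3, either cr12_control library, WT_heat replicate 2, cr12_heat replicate 1 or either cr2_heat library, with differences of -0.56 to -0.41 and adjusted p of 0.0501 to 0.0917. The difference of heat responses of BI-1 was -0.60 ± 0.17 and did not pass in edgeR (adjusted p = 0.14).

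Between the heated lines 1 of the 23 genes was called lower in cr12, a share near the 3.45% of all tested genes. It was SDF2, which works with ERdj3B and BiP. It stood at 80.6 and 84.4 CPM in cr12 and 117 and 107 CPM in cr2, lower in cr12 by -0.44 ± 0.10 (edgeR, adjusted p = 0.023). It was not called when the fit held just the compared groups, or without any 1 of the 4 heated htg3 libraries (-0.48 to -0.35, adjusted p of 0.101 to 0.201). DESeq2 also called IRE1 and bZIP60, and limma-voom bZIP60, both higher in cr12 (0.33, edgeR adjusted p = 0.081, and 0.53, 0.057). In all, 6 of the 23 were higher and 6 lower in both heated cr12 libraries than in both cr2 libraries, where 23.9% of tested genes were higher and 24.6% lower. Untreated, 0 of the 23 were called between the lines (edgeR), where 3.8% of tested genes were, and 5 had an unadjusted p under 0.05, where 21.2% had. DESeq2 called 1 of the 23, the calreticulin gene CRT3, and 3161 genes in all, and limma-voom 0 of the 23.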

How the data were processed

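Leaf RNA of 14 libraries was measured by sequencing. The authors deposited 1 table of estimated counts per gene, named by MSU locus IDs. The tools named in the submitters' processing notes are HISAT2 2.1.0, StringTie 1.3.3b, fastp 0.20.1 and DESeq2; their roles are not given. The genome build, the strand setting and the treatment of reads shared between similar genes are not given in the sources used here. All values are whole and needed no rounding. They gather at multiples of 4 (9196 values of 4 against 3918 of 3), so 1 fragment was taken as 4 counts and the floor for a group without counts as 3 fragments, or 12 counts over the group.

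Tests were edgeR 4.0.16 quasi-likelihood F tests in R 4.3.3 (TMM scaling, filterByExpr, 1 fit of 6 group means to all libraries, each htg3 line weighted equally). Adjusted p-values are Benjamini-Hochberg over all 28823 tested genes, called under 0.05. The SE is the size of the log2 change over the root of its F statistic, and intervals are at 95%. Counting intervals cover counting error only. The fit was also run on counts simulated from its own dispersions, with 200 genes changed in the WT heat comparison. That run does not cover genes with low counts or the comparisons between genotypes. Alternatives were DESeq2 1.42.0, limma-voom (limma 3.58.1), RLE size factors, no filter, counts divided by 4, only the groups compared, and libraries left out. DESeq2 was run on every gene with a count in any library, so its totals are not out of the 28823 genes.

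Named were all 9 genes. Of the 23 others, those called between genotypes and the 3 with the largest change per heat comparison were named. So were the 3 genes most like BiP1 and most like bZIP74. Members and lists were chosen with earlier results of these data known. Gene names come from those lists: a RefSeq-based name table (assembly ASM3414082v1) without MSU IDs held 7 of the 9 and 18 of the 23 symbols, all on the chromosome of their ID. No coordinates or sequences are given, as no genome of the table's build was used here.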

Additional observations from a re-analysis of the deposited data

Results flagged for a closer look

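The mean of BiP2 rose with heat in WT and fell in cr2, but the fall in cr2 did not pass the test. Its log2 change in cr2 was -1.12, interval -4.71 to 2.47 (edgeR, adjusted p = 0.62). The difference between WT and cr2 was not tested on its own, and that between WT and both lines did not pass. In cr2 the mean fell by 0.0768 CPM, from 0.141 ± 0.0291 CPM untreated (27 counts over 2 libraries) to 0.0642 ± 0.0296 CPM after heat (12 counts over 2 libraries). In WT it went from 0 to 0.215 ± 0.251 CPM (56 counts over 3 heated libraries, of which WT_heat replicate 2 holds 43). The heated cr2 value lies at the floor of 12 counts. Groups of 2 and 3 libraries are too small to test a single library as an outlier.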

How the results depend on the processing

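No paired analysis was possible because the labels carry no replicate numbers. Of 112 gene results, 70 were called, and 64 of these, all of them heat responses, kept direction and call under all 21 alternatives. BiP2 after heat in WT was called in the 19 that tested it; with counts divided by 4 and with only the groups compared it fell under the filter, and 7 members were called instead of 8. The other 5 are PDIL1-1 and CRT untreated in the htg3 lines against WT, BI-1 after heat, and PDIL1-1 and SDF2 between the heated lines. They are the only calls between genotypes or lines among these results, and each was lost under at least 1 alternative. Without both second untreated htg3 libraries, untreated PDIL1-1 (0.37, adjusted p = 0.0741) and CRT (0.48, 0.0781) were not called.

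The number of members called untreated in the htg3 lines was 4 with DESeq2, which called 2246 genes in all. It was 0 without both second untreated htg3 libraries, and 0 to 2 with 1 library left out. After heat DESeq2 called 2 members and 4349 genes in all, and in the difference of responses 1 member and 1204 genes in all. Between the untreated lines DESeq2 (3161 genes in all), limma-voom (1392) and counts divided by 4 each called 1, and leaving out a library gave 0 to 1. Between the heated lines RLE size factors (1482 genes in all), no filter and only the groups compared each gave 0. Leaving out both second untreated htg3 libraries also gave 0 there, and leaving out a library 0 to 1. Where no total is given, the calls over all genes were not counted. The cause was not tested.

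Some differences that had not passed the test changed sign; ranges are over libraries left out. For the htg3 lines against WT after heat, BiP1 was -0.00678 with DESeq2 and -0.00688 with RLE size factors and ranged from -0.0785 to 0.065, and PDIL2-3 was -0.00426 and -0.00436 and ranged from -0.0457 to 0.0478. In the same comparison BiP4 ranged from -0.486 to 0.21, CNX from -0.359 to 0.017 and bZIP74 from -0.0931 to 0.0224. For bZIP74 the untreated difference from WT ranged from -0.0415 to 0.13 and the difference of responses from -0.146 to 0.0251. Between the untreated lines BiP4 ranged from -4.97 to 3.99, PDIL1-1 from -0.132 to 0.0203 and bZIP74 from -0.0401 to 0.392. Between the heated lines CNX ranged from -0.562 to 0.191 and bZIP74 from -0.104 to 0.0178.

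Groups hold 2 or 3 libraries, which limits the genotype comparisons, and BiP2, BiP4 and BiP5 are limited by counts near the floor.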
